A study of Homo sapiens with 4 samples.

Results

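Antibody-drug conjugates, T-cell therapies and radioligands need a protein on the tumour cell surface to bind, and neuroendocrine prostate cancer (NEPC) loses several of the antigens found on prostate adenocarcinoma. The genes described here encode 8 surface antigens used or proposed as therapy targets in NEPC, namely NCAM1, CD276, STEAP1, CEACAM5, SSTR2, CD24, PROM1 and CD46. They were chosen by name, with earlier results of these data known. Of the 8, 7 were analysed out of 16376 genes in the expression table, and CEACAM5 was not analysed here. Some of these proteins join cells to each other, some restrain immune or complement attack, and 1 is a hormone receptor, so they share a location at the cell surface rather than a pathway. RNA levels were measured and not the protein at the surface, where trafficking and glycosylation also decide what an antibody can bind.

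RNA was sequenced from LASCPC-01 cells given PBS, the vehicle, or fluoxetine, an antidepressant that blocks serotonin reuptake, with 2 libraries per group. LASCPC-01 is a human NEPC line made by combined expression of NMYC and activated AKT1, so cells of both groups carry these drivers, and the labels give its genotype as WT. The labels place all 4 libraries at day 3 without a dose, the study's text and figure legends name 5 µM for 48 h, and the titles of the fluoxetine libraries carry the letters PP. The labels do not state whether the libraries came from separate cultures, so p-values measure the spread between libraries, which may be technical. Depth lay between 32873603 and 34831389 reads, and 1 read on a gene of 1 kilobase was worth 0.0287 to 0.0304 FPKM, a unit that divides the fragments of a gene by gene length and by library depth.

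The neuroendocrine label was checked first. INSM1, a transcription factor of neuroendocrine cells, had 21.7 to 24.2 FPKM. MYCN, which encodes NMYC, had 323 to 387 FPKM. NMYC was expressed to make the line, so this level is no check of the label. CHGA, which encodes the granule protein chromogranin A, was near the detection limit with 0 to 7 reads, and SYP stayed between 0.142 and 0.629 FPKM. Among markers of other cells, PTPRC of leukocytes had 1 to 7 reads, CD3E of T cells 0 to 1 read and PECAM1 of endothelium 0 to 4 reads. CD68, listed as a leukocyte marker for its level in macrophages, had 2.74 to 3.97 FPKM, and VWF of endothelium had 23 to 45 reads. COL1A1, a fibroblast collagen, had 1.83 to 2.75 FPKM while COL1A2 had 0 to 11 reads and DCN 18 to 49. No marker that had enough reads to be tested was called between the groups by limma or by limma voom. CHGA, PTPRC, CD3E, PECAM1 and COL1A2 were below the level set for limma, and CD3E and PECAM1 also for limma voom. In limma 1 of the 5 neuroendocrine markers tested, ENO2, was lower at an unadjusted p under 0.05. Of all genes tested 4.79% were lower at that level (8.51% in either direction). In limma voom 2 of 7 were lower, ENO2 and MYCN, against 7.19% of the genes in that fit (10.6% in either direction). In bulk RNA, fewer cells that express a gene and less RNA per cell cannot be told apart.

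The 7 genes spanned a wide range of levels. CD46, NCAM1 and CD24 were among the more abundant genes of the table, PROM1 was intermediate, CD276 and SSTR2 were low, and STEAP1 was close to the level of single reads. With fluoxetine, 6 of the 7 had a log2 fold change below 0, as had 56.5% of all genes tested, and STEAP1 had one above 0. None passed an adjusted p under 0.05 in limma, a linear model with variances moderated over all genes, in which 0.237% of the 12663 genes tested passed (0.213% lower). At an unadjusted p under 0.05 there were 2 of the 7, NCAM1 and CD276, both lower. Of all genes tested 4.79% were lower at that level, and 8.51% passed it in either direction. In limma voom on the recovered read numbers 0 of the 7 passed as well. There the same 2 were lower at an unadjusted p under 0.05, as were 7.19% of the 13985 genes in that fit. In either direction 10.6% of those genes passed that level.

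**Figure D1:**
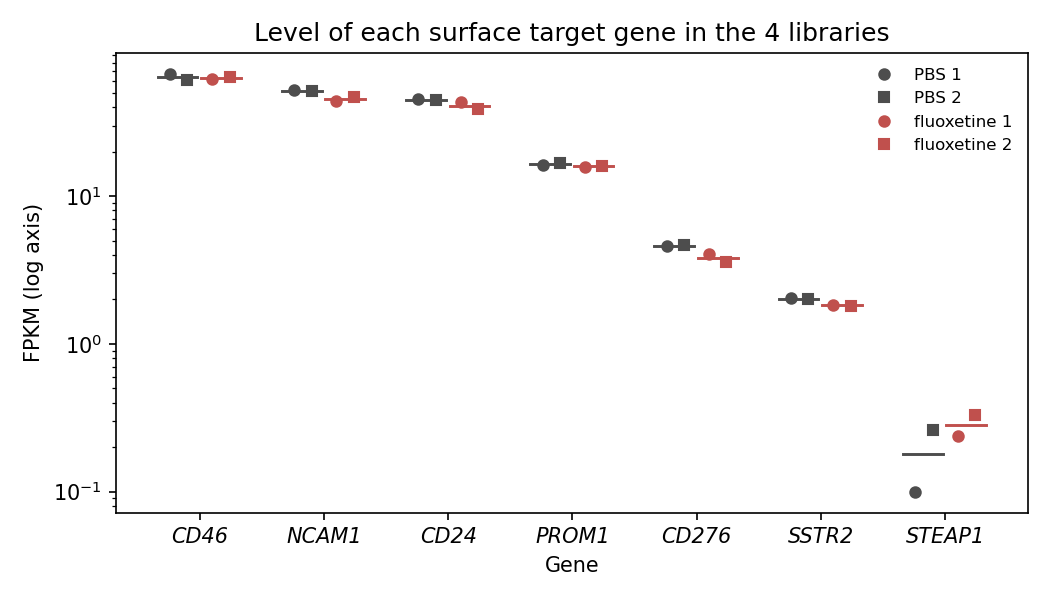
FPKM (log axis) of the 7 surface target genes in each of the 2 PBS and 2 fluoxetine libraries, with a bar at each group mean. Levels run from 61.4 to 67.2 FPKM for CD46 down to 0.0998 to 0.330 FPKM for STEAP1, and NCAM1 lay at 1.03 to 1.22 times CD24 in the same library.

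NCAM1, also called CD56, is an adhesion molecule of neurons, neuroendocrine cells and natural killer cells, and its stain is used in the diagnosis of neuroendocrine tumours. Its level was 52.0 and 51.2 FPKM under PBS, against 44.3 and 47.1 FPKM under fluoxetine. Both fluoxetine libraries lay below both PBS libraries, and the fluoxetine replicates were further apart than the PBS replicates. On the log2 scale the groups differed by -0.18, with a standard error of 0.07 and a 95% interval from -0.33 to -0.02 (adjusted p = 0.541 from limma). These values rested on 12872 to 14852 reads per library. The gene lies on the plus strand of chromosome 11 of GRCh38 from 112961247 to 113278436 in GENCODE release 29, where 2 antisense genes overlap its exons.

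CD276, or B7-H3, is an immune checkpoint protein of the B7 family. Its levels were 4.57 and 4.68 FPKM with PBS and 4.08 and 3.57 FPKM with fluoxetine. The groups did not overlap, and fluoxetine replicate 2 was the lowest of the 4 libraries. On the log2 scale it differed by -0.27 (standard error 0.12, 95% interval from -0.52 to -0.02, adjusted p = 0.555 from limma), which was the lowest value among the 7 genes. The means differed by -17.2%, and 9.1% of all genes tested had a log2 fold change as low or lower. CD276 lies on the plus strand of chromosome 15 from 73683966 to 73714518.

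CD24 is a small, heavily glycosylated protein held in the membrane by a glycosylphosphatidylinositol (GPI) anchor, and it restrains phagocytosis through the receptor encoded by SIGLEC10. It had 45.2 and 44.8 FPKM with PBS against 43.1 and 38.7 FPKM with fluoxetine. Fluoxetine replicate 2 was again the lowest library. Its replicates with fluoxetine differed by 10.8% where counting alone gives a standard error of 2.12%, whereas those with PBS differed by 0.830%. Its log2 difference of -0.14 had a 95% interval from -0.31 to 0.03 (adjusted p = 0.613 from limma). CD24 lies on the minus strand of chromosome 6 from 106969831 to 106975627, and GENCODE lists 3 numbered CD24 pseudogenes, so reads that match a copy may be missing or misplaced.

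SSTR2 is the G protein-coupled somatostatin receptor that is bound by the somatostatin analogues used for imaging and radioligand therapy of neuroendocrine tumours. Its 2.03 and 2.01 FPKM with PBS stood above 1.84 and 1.80 FPKM with fluoxetine. Replicates in both groups differed by less than the counting error of their 481 to 538 reads. This gave a log2 fold change of -0.14, with a standard error of 0.14 and a 95% interval from -0.46 to 0.17 (adjusted p = 0.773 from limma). SSTR2 lies on the plus strand of chromosome 17 from 73165012 to 73176633. It shares 277 exon bases with AC097641.1 on the same strand, a gene without values here.

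PROM1, or CD133, is a glycoprotein of membrane protrusions that is used as a marker of stem and progenitor cells. It had 16.2 and 16.8 FPKM with PBS and 15.8 and 16.1 FPKM with fluoxetine. The groups were separated by less than the difference between the PBS replicates, and the log2 fold change was -0.05 (95% interval from -0.22 to 0.12, adjusted p = 0.871 from limma). PROM1 lies on the minus strand of chromosome 4 from 15963076 to 16084378, and shares 166 exon bases with FGFBP2, which had 0 to 2 reads per library.

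CD46 is a regulator that protects cells from complement by acting as a cofactor of factor I, the protease encoded by CFI. By FPKM it was the most abundant of the 7, at 67.2 and 61.4 FPKM under PBS and at 62.3 and 63.7 FPKM under fluoxetine. Both fluoxetine values fell between the PBS values. A log2 fold change of -0.03 had a 95% interval from -0.19 to 0.13 (adjusted p = 0.936 from limma), and it was 0.04 without PBS replicate 1. CD46 lies on the plus strand of chromosome 1 from 207752057 to 207795513, and has 1 numbered pseudogene in GENCODE.

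STEAP1 is a membrane antigen enriched in prostate epithelium and a target of T-cell engagers. Under PBS it was covered by 4 and 11 reads (0.0998 and 0.260 FPKM), and under fluoxetine by 10 and 14 (0.236 and 0.330 FPKM). The groups overlapped, and PBS replicate 1 stood below the other 3 libraries. Its log2 fold change came to 0.50 with a standard error of 0.38 and a 95% interval from -0.33 to 1.34 (adjusted p = 0.695 from limma), so at this depth changes in either direction were not distinguishable. Without PBS replicate 1 it was 0.08. STEAP1 lies on the plus strand of chromosome 7 from 90154375 to 90164829.

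**Figure D2:**
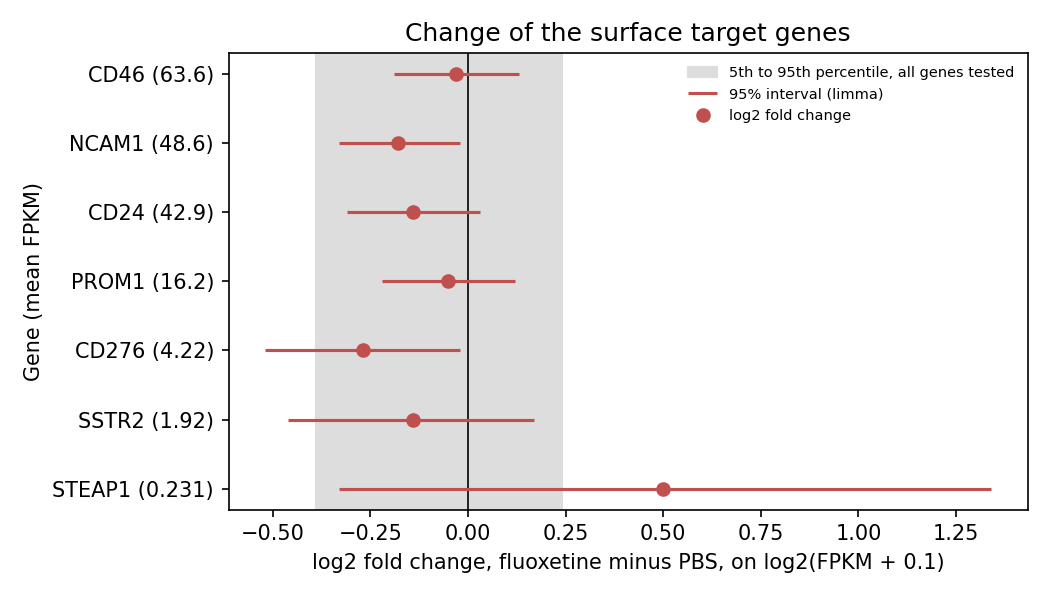
Log2 fold change (fluoxetine minus PBS, on log2(FPKM + 0.1)) of the 7 genes with 95% intervals from limma, ordered by mean FPKM, over a grey band for the 5th to 95th percentile of all 12663 genes tested. The intervals of NCAM1 and CD276 lie below 0 and the other 5 span it. STEAP1 at 0.50 is the only point outside the band from -0.39 to 0.24. For genes with a mean of at least 1 FPKM, not drawn, the same percentiles were -0.26 and 0.20, and CD276 at -0.27 lies just below them.

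Both fluoxetine libraries lay below both PBS libraries for 5 of the 7 genes, NCAM1, CD276, CD24, SSTR2 and PROM1, where 24.8% of all genes tested did so. The reverse order was seen for 0 of the 7 and for 16.7% of all genes tested. The median log2 fold change of the 7 was -0.14, and that of all genes tested was -0.02. Because the libraries differed in how FPKM followed gene length, with a correlation across genes of -0.283 between log2 length and the deviation from the gene mean in fluoxetine replicate 1 and 0.187 in PBS replicate 2, the genes were also compared with this trend removed. Then 3 of the 7, NCAM1, CD276 and CD24, were lower with fluoxetine without overlap, against 20.0% of all genes tested. Without overlap, 0 of the 7 were higher, against 19.4%. The difference on the log2 scale became -0.09 for NCAM1, whose implied length of 8354 bases was the longest of the 7, -0.06 for SSTR2 and -0.01 for PROM1, whereas it was -0.25 for CD276 and -0.14 for CD24. The part of length in these differences was not tested.

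**Figure D3:**
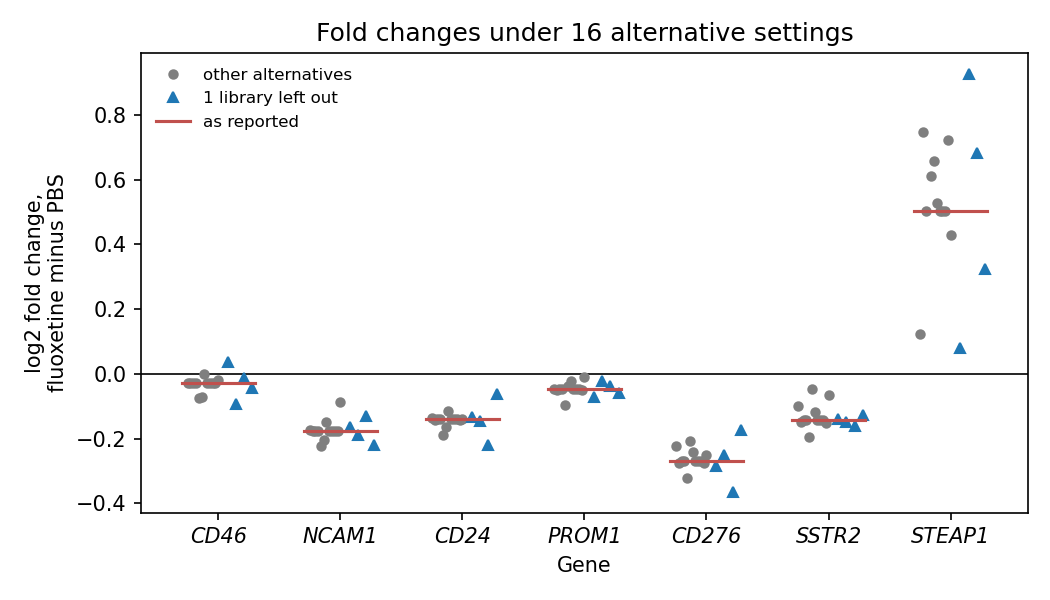
Log2 fold change of each of the 7 genes as reported (red line), with 1 library left out (blue triangles) and under the other alternative settings (grey points), 16 alternatives in all. NCAM1, CD276, CD24, SSTR2 and PROM1 stay below 0 throughout, CD46 moves across 0, and STEAP1 ranges from 0.08 to 0.93.

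The order of the FPKM levels was the same in each of the 4 libraries, which share the same gene lengths. The implied lengths of CD46, NCAM1 and CD24 were 3388, 8354 and 3134 bases, where GENCODE 29 has 8708, 12737 and 3097 exon bases. In PBS replicate 1 the recovered reads of these genes were 7482, 14288 and 4655. Divided by the GENCODE lengths, they put CD24 above NCAM1 and NCAM1 above CD46. The order of genes can therefore change with the lengths used, though true reads can be multiples of the recovered ones. On the deposited FPKM, CD46 exceeded NCAM1 by 1.20 to 1.41 times within a library. NCAM1 and CD24 were the closest neighbours, with a ratio of 1.03 to 1.22, and their ranges over the 4 libraries overlapped. CD24 was 2.40 to 2.79 times PROM1, PROM1 3.55 to 4.51 times CD276, and CD276 1.99 to 2.32 times SSTR2. SSTR2 exceeded STEAP1 by 5.45 to 20.3 times, a wide range that follows the few reads of STEAP1. By mean FPKM, CD46 stood at percentile 93.7 of the listed genes, NCAM1 at 91.6, CD24 at 90.2, PROM1 at 75.7, CD276 at 50.3, SSTR2 at 40.6 and STEAP1 at 27.1.

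Relatives in the same families had very different levels in these cells. SSTR1, another somatostatin receptor, had 79.6 and 82.0 FPKM with PBS and 79.1 and 88.0 FPKM with fluoxetine. It was 39.3 to 49.0 times as abundant as SSTR2 in each library, on the FPKM scale, and was the most abundant somatostatin receptor gene of the table. SSTR5 had 9 to 21 reads and SSTR3 had 0 to 7. For SSTR1 the log2 fold change was 0.05 with a 95% interval from -0.12 to 0.21 (adjusted p = 0.874 from limma). SST, the gene of the ligand somatostatin, had 0 to 1 read per library. CORT, whose product cortistatin binds the same receptors, had 0 to 4.

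STEAP3, a metalloreductase of the STEAP family that works in iron uptake, had 35.7 to 39.4 FPKM in the 4 libraries, while STEAP2 had 1 read in each PBS library and 0 with fluoxetine. PROM2, the other prominin, had 39.1 and 46.1 FPKM with PBS and 41.5 and 44.2 FPKM with fluoxetine, 2.41 to 2.75 times PROM1. NCAM1 exceeded NCAM2 by 300 to 347 times. CD46 was accompanied by the complement regulators CD55, which speeds the decay of complement convertases, at 9.97 to 12.0 FPKM, and CD59, which blocks the membrane attack complex, at 6.65 to 7.07 FPKM. In each library CD46 was 5.13 to 6.54 times CD55 and 8.87 to 9.50 times CD59.

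**Figure D4:**
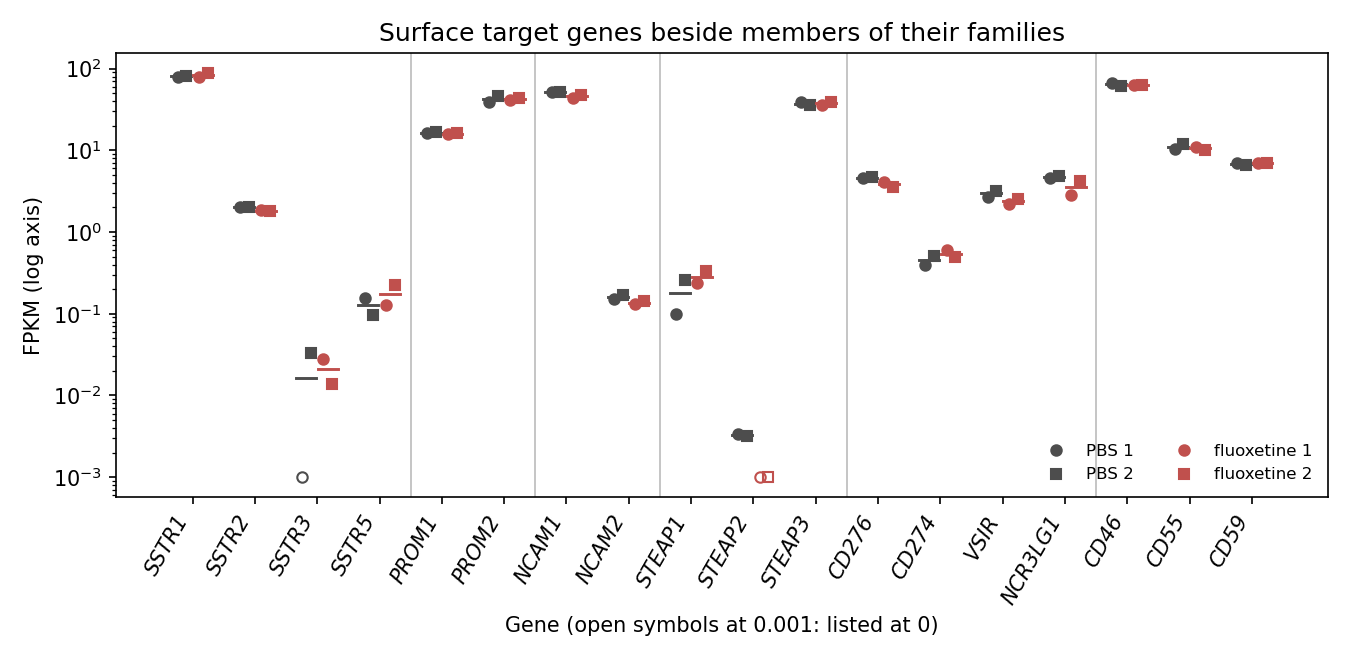
FPKM (log axis) of surface target genes beside relatives in 6 groups separated by grey lines, with points for the 2 PBS and 2 fluoxetine libraries, bars at group means and open symbols for values listed at 0. SSTR1, PROM2 and STEAP3 stand above SSTR2, PROM1 and STEAP1, while NCAM1 stands above NCAM2 and CD46 above CD55 and CD59.

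Among the B7 relatives of CD276, CD274, which encodes PD-L1, had 0.397 and 0.506 FPKM with PBS and 0.597 and 0.490 FPKM with fluoxetine, so CD276 was 6.84 to 11.5 times as abundant within a library. NCR3LG1, also called B7-H6 and a ligand of the natural killer receptor NKp30, had 4.53 and 4.88 FPKM with PBS and 2.87 and 4.25 FPKM with fluoxetine. Its log2 fold change was -0.42 (95% interval from -0.77 to -0.07, adjusted p = 0.535 from limma). VSIR, which encodes the checkpoint protein VISTA, had 2.72 and 3.22 FPKM against 2.21 and 2.53 FPKM. It differed by -0.31 on the log2 scale (95% interval from -0.62 to -0.00, adjusted p = 0.576 from limma). For both genes the groups did not overlap, and the unadjusted p was under 0.05. Of the 14 relatives tested these 2 were lower at that level, against 4.79% of all genes tested (8.51% in either direction). In the whole list of 34 relatives, 18 were in the table and 14 were tested. None of the 14 passed an adjusted p under 0.05 in limma, nor did any in limma voom, 3 were lower with fluoxetine without overlap, against 24.8% of all genes tested, and the median log2 fold change was 0.01.

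Another 24 surface targets were listed, STEAP2 again among them, of which 23 were in the table and 12 were tested. The most abundant were EPCAM, an epithelial adhesion protein, and DLL3, an inhibitory Notch ligand that is a target of T-cell engagers in neuroendocrine cancers. EPCAM had 232 and 228 FPKM with PBS and 271 and 238 FPKM with fluoxetine, and was 3.46 to 4.34 times CD46. DLL3 had 199 and 177 FPKM with PBS and 201 and 197 FPKM with fluoxetine, 3.47 to 4.55 times NCAM1. Log2 fold changes were 0.14 for EPCAM (95% interval from -0.04 to 0.32) and 0.09 for DLL3 (95% interval from -0.09 to 0.26). FOLH1, the gene of prostate-specific membrane antigen, was near the detection limit with 0 to 3 reads.

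None of the 12 tested genes passed an adjusted p under 0.05 in limma, nor did any in limma voom. In limma 2 were lower at an unadjusted p under 0.05, against 4.79% of all genes tested (8.51% in either direction). MUC1, a membrane mucin, was covered by 874 and 1132 reads under PBS and by 712 and 857 reads under fluoxetine, with means of 7.27 and 5.54 FPKM. The groups did not overlap, and the log2 fold change was -0.39 (95% interval from -0.66 to -0.11, adjusted p = 0.458 from limma). L1CAM, an adhesion molecule of neurons, was covered by 47 and 60 reads under PBS and by 12 and 25 under fluoxetine. Its log2 fold change was -1.02 (95% interval from -1.83 to -0.20, adjusted p = 0.525 from limma). The median of the 12 was -0.09, and without overlap of the groups 4 were lower and 1 higher with fluoxetine, against 24.8% and 16.7% of all genes tested.

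**Figure D5:**
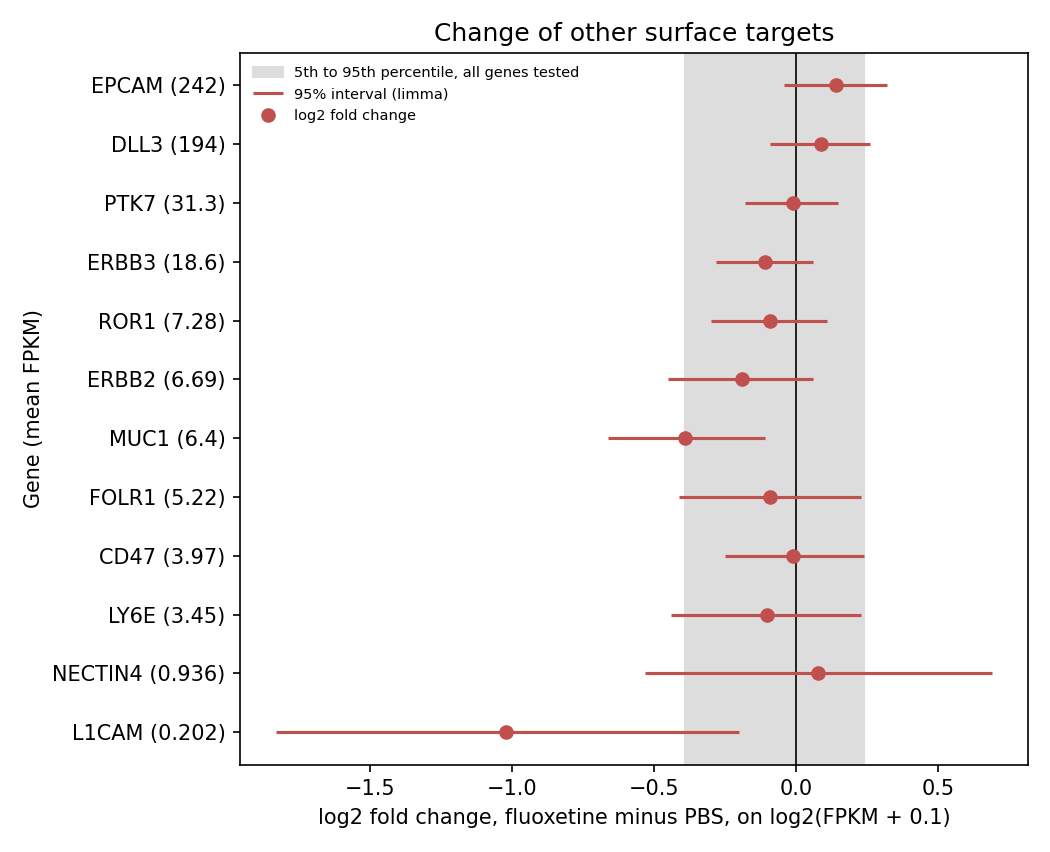
Log2 fold change (fluoxetine minus PBS, on log2(FPKM + 0.1)) with 95% intervals from limma for the 12 other surface targets tested, ordered by mean FPKM, over the 5th to 95th percentile of all genes tested in grey. EPCAM and DLL3 lie at 0.14 and 0.09, and the intervals of MUC1 and L1CAM lie below 0.

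Ligands, signalling partners and processing enzymes of the surface targets formed a further list. Of its 21 genes, 19 were in the table and 13 were tested. Limma called none of the 13, and limma voom none of the 16 with enough reads for it. At an unadjusted p under 0.05 limma had 0 of the 13, against 8.51% of all genes tested, and limma voom had 2 of the 16, ARRB1 and ST8SIA4, against 10.6%. In limma the 13 had log2 fold changes between -0.27 and 0.12 and a median of -0.05. GNAI2, which encodes an inhibitory G protein subunit that couples to somatostatin receptors, had 109 to 116 FPKM. PIGT and GPAA1, parts of the transamidase that attaches GPI anchors to proteins such as CD24, had 48.2 to 56.4 FPKM and 49.2 to 58.7 FPKM. CFI had 2 to 9 reads. ST8SIA4, an enzyme that adds polysialic acid to NCAM1, was below the level set for the main test and was chosen for description after its values were seen. Its reads numbered 9 and 7 under PBS against 31 and 28 under fluoxetine, and limma voom put the log2 fold change at 1.79 (standard error 0.76, adjusted p = 0.405). ST8SIA2, the other polysialyltransferase, had 1 read in each PBS library and 0 with fluoxetine.

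The profile over the 4 libraries that was most like that of each gene was sought among 37 listed genes with a mean of at least 1 FPKM, by the root mean square difference of centred log2 values. It was ROR1 for NCAM1 (0.044), CD24 for CD276 (0.067), ARRB2 for PROM1 (0.031) and CD59 for CD46 (0.037), and CD24 and SSTR2 were each the nearest to the other (0.043). With 4 libraries many genes reach such distances, and these pairs are given as a description.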

How the data were processed

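Per the labels, reads were processed with fastp, HISAT2 and HTSeq on GRCh38; versions and the annotation are not given in the sources used here. The kit is VAHTS in the study's methods and stranded TruSeq mRNA in the labels. The authors deposited 1 FPKM value per gene and library for 16376 genes, with no read counts. Read numbers were recovered as the smallest whole numbers (within 0.004) that gave the FPKM ratios and, at the depth fixed by 99 genes of known GENCODE length, a whole gene length, for 99.1% of the values above 0. True reads can be multiples of these.

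Values were taken as log2(FPKM + 0.1), and the 12663 genes whose FPKM averaged 0.1 or more were fitted with limma 3.58.1 (R 4.3.3; eBayes with its trend option). P-values were adjusted by Benjamini-Hochberg over all of them; a fold change on this scale understates that of low genes. The count model named in the study needs read counts, so limma on log values was used. An exact permutation test of 2 against 2 libraries cannot go below p = 0.33. Replicates correlated at 0.993 and 0.994 across genes, and their reads differed by more than sampling noise (chi-square per degree of freedom 8.37 and 10.1). Intervals from counting cover counting error only. The recovery of reads and the limma fit were tested on simulated data. There limma called 11 of 200 genes changed by 0.3 on the log2 scale, so changes of that size were mostly missed. It called 141 of 200 at 0.5 and 200 of 200 at 1. The changed genes were drawn from those with a mean of at least 1 FPKM, and no length trend was simulated. These rates therefore do not cover lower genes such as STEAP1 and L1CAM. Unchanged genes called numbered 11, 13 and 16 in these runs. Figures were drawn in Python 3.11.15 with matplotlib 3.10.9.

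The members, the 3 gene lists and the markers were chosen with earlier results of these data known. The 8 members are named, and of each list the genes with the highest FPKM, the smallest unadjusted p or a near absence. The 16 alternatives changed the pseudocount (1 or 0.01), the filter (none, or at least 1 FPKM), the scale (TPM, quantile normalization, median centring) and eBayes (no trend, or robust), or used a replicate block, limma voom on genes with at least 10 recovered reads, removal of the length trend (lowess, span 0.3) or 3 of the 4 libraries. GENCODE 29 gave gene positions. Some listed genes are not reported here.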

Additional observations from a re-analysis of the deposited data

How the results depend on the processing

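In limma, 30 of all genes tested were called at an adjusted p under 0.05, and 0 of the 7 surface target genes did so under any of the 16 alternatives. The number of genes called moved to 0 without the filter on low values (1175 at an unadjusted p under 0.05), 0 without the variance trend (933), 16 with quantile normalization and 51 with limma voom, and lay between 2 and 12 with 1 library left out. With the replicate number as a replicate block it was 64, although the 2 pairs share only a number, with a correlation of 0.035 between the deviations of same-numbered libraries, and the block called none of the 7 genes. Of the 111 fold changes of single genes under the alternatives, 110 kept their direction and stayed short of the threshold. The exception was CD46, at 0.04 without PBS replicate 1. A minimum mean of 1 FPKM left STEAP1 untested. With 1 library left out, the log2 fold changes ranged from -0.22 to -0.13 for NCAM1, -0.36 to -0.17 for CD276, -0.22 to -0.06 for CD24, -0.16 to -0.13 for SSTR2, -0.07 to -0.02 for PROM1, -0.09 to 0.04 for CD46 and 0.08 to 0.93 for STEAP1. The lone library of a group was then assumed to vary like the other group. With quantile normalization both fluoxetine libraries of STEAP1 lay above both PBS libraries. With median centring, 19.9% of all genes tested were lower and 21.3% higher without overlap. The unadjusted p was under 0.05 in 10 of the 16 alternatives for NCAM1 and in 10 for CD276. It was above 0.05 with median centring (0.0656 for NCAM1, 0.0584 for CD276), and for NCAM1 with the length trend removed (0.160) and without the variance trend (0.0901). For CD276 it was also above 0.05 with quantile normalization (0.0988) and without the filter (0.0620). The other cases above 0.05 were fits with 1 library left out.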
